A study of Saccharomyces cerevisiae with 22 samples.

Results

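The 10 genes described here encode enzymes of the main glycolytic route of Saccharomyces cerevisiae, from the isomerisation of glucose-6-phosphate to the formation of pyruvate. They were chosen by name, not by a measured value, but with earlier results of these data known. They are 10 of the 6225 genes on the array and 10 of the 5912 genes tested. In order of the pathway they are PGI1 (YBR196C, phosphoglucose isomerase), PFK1 (YGR240C) and PFK2 (YMR205C), the alpha and beta subunits of phosphofructokinase, FBA1 (YKL060C, aldolase), TPI1 (YDR050C, triose phosphate isomerase), TDH1 (YJL052W, an isozyme of glyceraldehyde-3-phosphate dehydrogenase), PGK1 (YCR012W, phosphoglycerate kinase), GPM1 (YKL152C, phosphoglycerate mutase), ENO1 (YGR254W, an isozyme of enolase) and CDC19 (YAL038W, the main pyruvate kinase). In yeast grown on glucose these enzymes turn the sugar into pyruvate, most of which leaves the cell as ethanol, and the route gives the growing cell most of its ATP. Their mRNAs are among the most abundant of the cell, and transcription of many of them depends on the activators Gcr1, Gcr2 and Rap1. Several steps are shared by near-identical isozymes, so a probe for TDH1 or ENO1 can also bind the mRNA of TDH2, TDH3 or ENO2.

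All cultures were self-diploid yeast of the BY4742 background, which lacks HIS3, LEU2, LYS2 and URA3, and were grown in SC-leucine medium. Besides the ancestor there were lineages B3, D11 and H9, and each lineage was a single clone taken from a population that had evolved with the mistranslating plasmid. That single-copy LEU2 plasmid expresses a mutant serine tRNA that reads the leucine codon CUG, so that serine is put in place of leucine at a share of these codons. Each strain was measured with this tRNA plasmid and with the empty vector, which in the lineages had replaced the tRNA plasmid. There were 2 arrays for the empty vector in the ancestor and in B3, and 3 for each of the other 6 groups. The series design calls the replicates independent experiments.

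Whole-array properties set the limits of every comparison. The median processed signal of an array ran from 328 on D11 with the empty vector, replicate 3, to 2279 on H9 with the empty vector, replicate 2. The same D11 array had 1317 probes whose 2 spots differed by more than 2-fold, and D11 with the tRNA, replicate 2, had 712, against 88 to 185 on the other 20 arrays. The arrays lay on 3 slides, the replicate number is the slide, and the slide of replicate 3 held neither the ancestor nor B3 with the empty vector. The deleted genes were dim in all cultures: the highest processed signal over the 22 arrays was 30.2 for HIS3, 15.9 for LYS2 and 48.8 for URA3.

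All 10 glycolytic probes were well above background on all 22 arrays, and none of their spots was saturated. A level is given below as log2 of the processed signal minus log2 of the median of its array, and since probes differ in how brightly they bind, levels are compared between groups and not between genes. Over the 22 arrays the level of PFK1 ranged from 4.64 to 5.27, that of PGI1 from 6.09 to 6.79 and that of PFK2 from 3.82 to 4.53, the narrowest ranges of the 10. PGK1 ranged from 5.97 to 6.84. FBA1, the aldolase gene, ranged more widely, from 6.75 to 8.89, as did TPI1, from 6.54 to 8.11, GPM1, from 6.88 to 8.38, CDC19, from 6.72 to 8.43, and TDH1, from 4.65 to 6.41. ENO1 ranged from 2.75 to 6.45, with the lowest value on the D11 array that had a median signal of 328.

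**Figure D1:**
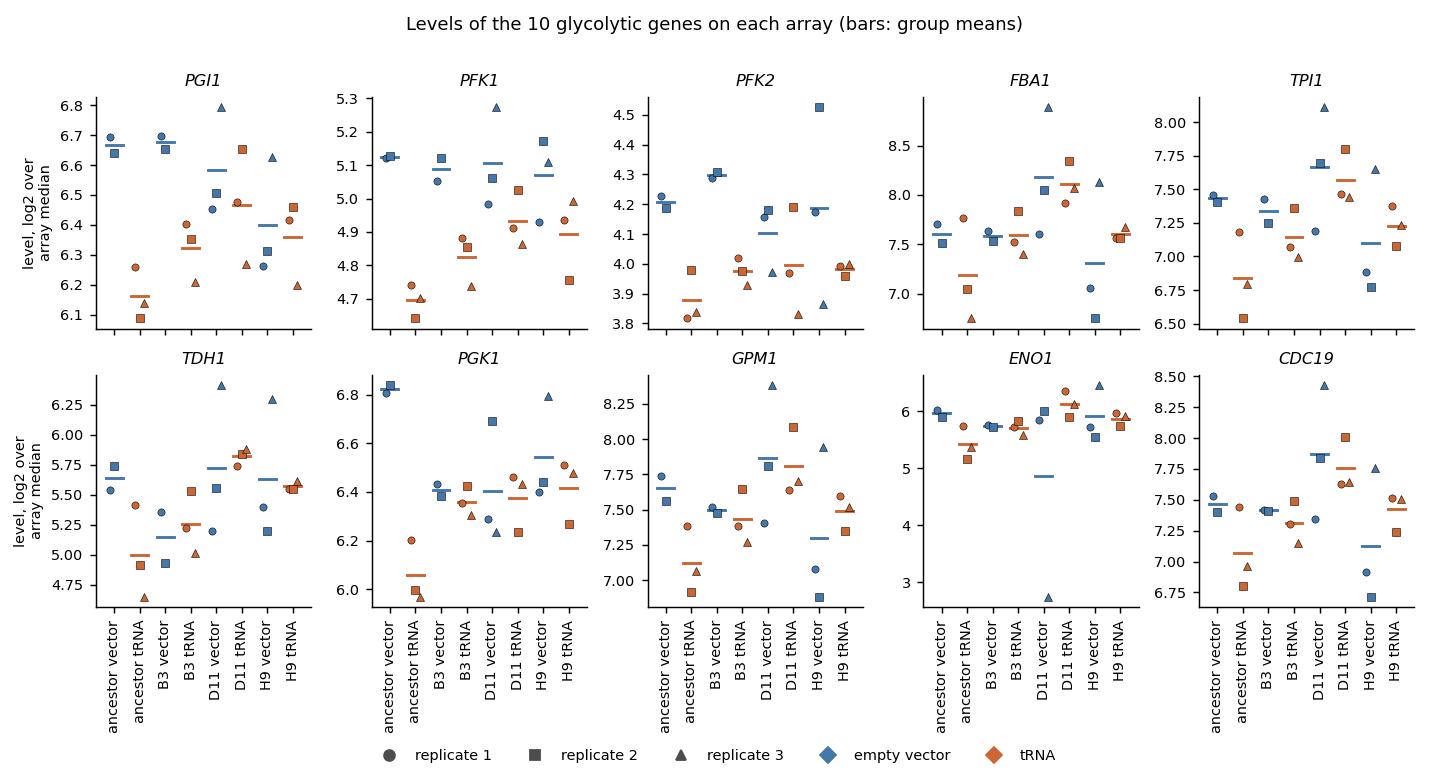
Level of each glycolytic gene (log2 of the processed signal over the median of the array) on the 22 arrays, in 8 groups of 2 or 3. Points are arrays, horizontal bars are group means, and each panel has its own scale. PGK1 is lowest in the ancestral tRNA group (5.97 to 6.20) and highest in the ancestor with the empty vector (6.81 and 6.84).

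The 10 probes followed the brightness of the array to different degrees. Across the 22 arrays, the slope of log2 processed signal on log2 array median, which is 1 for a gene whose signal scales with its array, was 0.22 for FBA1 (SE 0.07), 0.36 for CDC19 (SE 0.04), 0.43 for GPM1 (SE 0.05), 0.44 for TPI1 (SE 0.06) and 0.48 for TDH1 (SE 0.11). It was 0.81 for PGI1 (SE 0.06), 0.89 for PFK1 (SE 0.06), 0.95 for PGK1 (SE 0.09) and 1.09 for PFK2 (SE 0.06). For ENO1 it was 1.45 (SE 0.25) and fell to 0.57 without the 2 arrays whose medians lay farthest from the middle. FBA1, CDC19, GPM1 and TPI1 are the 4 brightest of these probes, with a mean log2 signal above 17, where the median slope of the 12 other probes was 0.31. TDH1 was dimmer, and its slope lay below the lower quartile, 0.58, of the other 103 probes between 15 and 16, whose median was 0.71. Those of PGI1 and PGK1 lay above the upper quartile, 0.68, of the other 54 probes between 16 and 17, whose median was 0.58. Over the 2140 probes between 10 and 12 the median slope was 0.94. The median-centred level of FBA1, TPI1, TDH1, GPM1 or CDC19 is therefore high on a dim array and low on a bright one. The array medians are given with the comparisons below, together with values fitted with the array median in the model. Counts of genes in those fits, whether passing or above or below 0, have no share over all genes beside them. The same holds for counts under other normalizations, within a slide, or with probes or arrays left out.

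**Figure D2:**
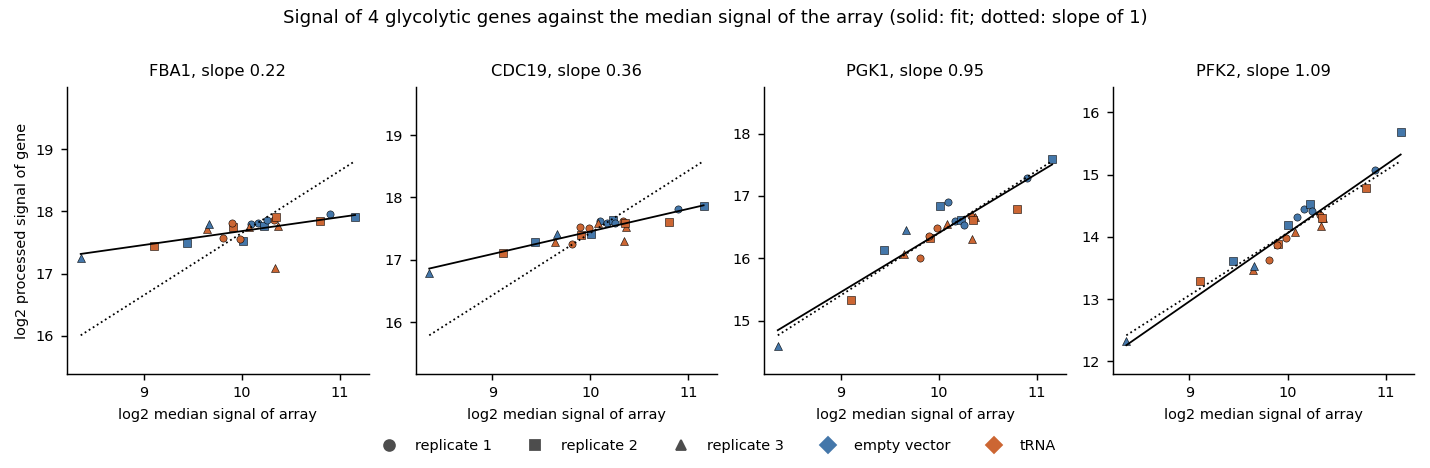
Processed signal of FBA1, CDC19, PGK1 and PFK2 (log2, vertical axis) against the median signal of the same array (log2, horizontal axis), with 1 point for each of the 22 arrays. Solid lines are least-squares fits with slopes of 0.22, 0.36, 0.95 and 1.09, and dotted lines have a slope of 1. FBA1 and CDC19 stay nearly level where PGK1 and PFK2 follow the array.

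The first comparison, tRNA against empty vector in the ancestor, asks what mistranslation did to the unevolved strain. All 10 genes had a lower mean with the tRNA, as did 56.9% of all genes, and PGK1, PGI1 and PFK1 fell past the threshold. PGK1, which catalyses the first ATP-forming step of the pathway, read 6.81 and 6.84 in the ancestor with the empty vector and 6.20, 6.0 and 5.97 with the tRNA. The groups did not overlap, and PGK1 was 1.70-fold lower (log2 difference −0.77, SE 0.14, limma with Benjamini-Hochberg adjustment over 5912 genes, adjusted p = 0.00185). PGI1, at the head of the route, read 6.69 and 6.64 with the empty vector and 6.26, 6.09 and 6.14 with the tRNA, and was 1.42-fold lower (−0.51, SE 0.14, limma adjusted p = 0.0188). PFK1, a subunit of the enzyme that commits the sugar to glycolysis, read 5.12 and 5.13 against 4.74, 4.64 and 4.70, and was 1.35-fold lower (−0.43, SE 0.11, limma adjusted p = 0.0110). In both of these genes, too, all tRNA arrays lay below all empty-vector arrays.

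Of the 10 genes, 3 thus passed the test, all lower, where 11.1% of all genes passed in that direction and 19% in either. None of the 3 changed by 2-fold, as 3.91% of all genes did. Without overlap between the groups, 8 of the 10 were lower, against 37.2% of all genes. The median log2 difference of the 10 was −0.52, and that of all genes −0.07. TDH1 differed by −0.65 (SE 0.33), TPI1 by −0.59 (SE 0.27), ENO1 by −0.54 (SE 0.62), GPM1 by −0.53 (SE 0.28), FBA1 by −0.42 (SE 0.37), CDC19 by −0.40 (SE 0.29) and PFK2 by −0.33 (SE 0.15), with limma adjusted p between 0.121 and 0.596. FBA1 and CDC19 were the 2 genes whose groups overlapped. The pyruvate kinase gene CDC19 read 7.53 and 7.40 with the empty vector and 7.44, 6.80 and 6.97 with the tRNA.

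The array medians of these groups were 1094 and 1030 with the empty vector and 899, 1782 and 1297 with the tRNA. The log2 median of each array was added to the model as an alternative chosen after seeing the data. All 10 genes were still lower with the tRNA and 7 passed the limma test, with no share over all genes given for that model. Quantile normalization between arrays also left all 10 lower, with a median of −0.23 and 2 passing, PGK1 (−0.52) and TPI1 (−0.30). Within slide 1, where the arrays had medians of 1094 and 899, 9 of 10 were lower (median −0.32) and FBA1 differed by 0.06. Within slide 2 all 10 were lower (median −0.62). No share over all genes is given for quantile normalization or for single slides. With normexp background correction PGK1 no longer passed (−0.75, limma adjusted p = 0.0797), while PGI1 (adjusted p = 0.0413) and PFK1 (adjusted p = 0.0397) did. With the values of the deposited series table none of the 3 passed: the differences were −0.53 for PGI1 (limma adjusted p = 0.0550), −0.43 for PFK1 (adjusted p = 0.0553) and −0.75 for PGK1 (adjusted p = 0.0760). Without ancestor empty-vector replicate 1, and likewise without replicate 2, only PGK1 passed, and without ancestor tRNA replicate 3, PGK1 and PFK1 passed.

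**Figure D3:**
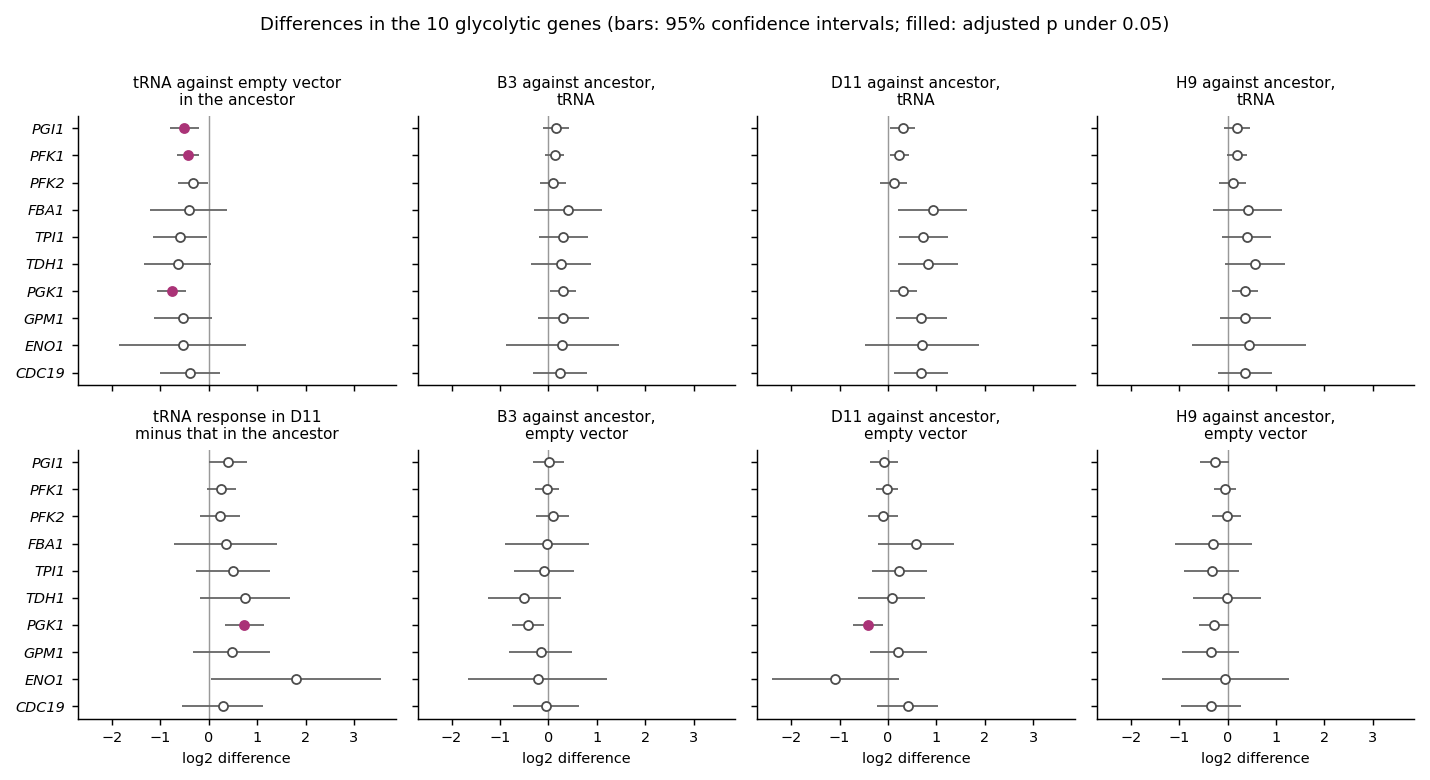
Fitted log2 difference of each of the 10 genes (horizontal axis) in 8 comparisons, with 95% confidence intervals from limma. Filled points passed at an adjusted p under 0.05. With the tRNA the ancestor is below the empty vector in all 10 genes and each lineage is above the ancestor in all 10, and the intervals of FBA1, TPI1, TDH1, GPM1, ENO1 and CDC19 are wider than those of PGI1, PFK1, PFK2 and PGK1.

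Next, each lineage was compared with the ancestor with the tRNA on both sides. These comparisons use the same 3 ancestor arrays as the one above, so the directions are not separate evidence. All 10 genes had a higher mean in each lineage, as did 52.6% of all genes for B3, 59.6% for D11 and 57.2% for H9. None of the 10 passed the limma test in any lineage, where 4.09% of all genes passed for B3, 7.68% for D11 and 11.4% for H9. At an unadjusted p under 0.05, 1 gene was higher for B3, against 6.83% of all genes, 8 for D11, against 16.2%, and 1 for H9, against 10.9%. The 10 genes had a median difference of 0.28 for B3, 0.69 for D11 and 0.37 for H9, and the median over all genes was between 0.01 and 0.07.

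In the main model D11 with the tRNA stood highest. With the array median in the model, and after quantile normalization, its median was below that of H9. FBA1 read 7.92, 8.34 and 8.07 in D11 and 7.76, 7.05 and 6.75 in the ancestor, a difference of 0.92 (SE 0.33, limma adjusted p = 0.115). TDH1 read 5.73, 5.84 and 5.88 against 5.42, 4.92 and 4.65, a difference of 0.82 (SE 0.29, adjusted p = 0.109). TPI1, which interconverts the triose phosphates made by aldolase, read 7.47, 7.80 and 7.44 against 7.18, 6.54 and 6.79, a difference of 0.73 (SE 0.24, adjusted p = 0.0764). In 9 of the 10 genes, all but PFK2, every D11 array lay above every ancestor array, against 22.2% of all genes. The array medians were 953, 550 and 800 in D11, and 899, 1782 and 1297 in the ancestor, so that 2 of the 3 D11 arrays were dimmer than all ancestor arrays. With the array median in the model the 10 differences stayed above 0, their median fell to 0.25, and only TPI1 passed (0.31, limma adjusted p = 0.0347). After quantile normalization the median was 0.01, with 6 genes above 0 and 4 below. With probes left out where their 2 spots differed by more than 2-fold, TPI1 (0.69, adjusted p = 0.0404) and ENO1 (0.83, adjusted p = 0.0176) passed.

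In H9 with the tRNA the largest difference was that of TDH1, 0.57 (SE 0.29, limma adjusted p = 0.263), and that with the lowest adjusted p was PGK1, 0.36 (SE 0.13, adjusted p = 0.0849). PGK1 read 6.51, 6.27 and 6.48 in H9, above all 3 ancestor arrays. In B3 with the tRNA PGK1 read 6.35, 6.42 and 6.31, also above all ancestor arrays (0.30, SE 0.13, limma adjusted p = 0.321), and it was the only gene of the 10 without overlap there. The groups did not overlap in 1 gene of 10 for B3, against 12.7% of all genes higher in this way, and in 3 of 10 for H9, against 20.6%. The array medians were 1286, 959 and 1319 for B3 and 1013, 1304 and 1080 for H9. With the array median in the model all 10 differences stayed above 0 in both, with a median of 0.21 for B3, where none passed, and 0.27 for H9, where 4 did: TPI1 (0.29, limma adjusted p = 0.0130), TDH1 (0.46, adjusted p = 0.0466), GPM1 (0.26, adjusted p = 0.0259) and CDC19 (0.24, adjusted p = 0.0358). Quantile normalization left 7 of 10 above 0 in B3 and 8 of 10 in H9.

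With the empty vector on both sides, none of the 10 genes passed in B3 or H9, where 11.9% and 3.23% of all genes passed, and 1 passed in D11, as lower, where 28.2% did and 11.7% were lower. The count at an unadjusted p under 0.05 was 1 for B3, where 27.7% of all genes had such a p, 1 for D11, where 41.5% did, and 0 for H9, where 11.7% did. The gene in question was PGK1. It read 6.43 and 6.38 in B3, and 6.29, 6.69 and 6.24 in D11, against 6.81 and 6.84 in the ancestor, so all B3 and D11 arrays were lower, as they were for 40.9% of all genes in B3 and 23.7% in D11. PGK1 differed by −0.42 in D11 (1.34-fold, SE 0.14, limma adjusted p = 0.0401), −0.42 in B3 (SE 0.16, adjusted p = 0.0948) and −0.28 in H9 (SE 0.14, adjusted p = 0.493). The D11 call was lost without D11 empty-vector replicate 3 (−0.33, limma adjusted p = 0.108), where the 2 PGK1 spots disagreed, without D11 replicate 1 and without either ancestor array. It was also lost with the replicate block (limma adjusted p = 0.0558), the median over unchanged chromosomes (0.0767) and the deposited series values (0.0552). Quantile normalization (0.00306), 75th percentile scaling (0.0174) and normexp (0.0413) kept it.

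The other genes gave intervals in place of calls. In D11, FBA1 differed by 0.58 (95% confidence interval −0.21 to 1.37) and CDC19 by 0.40 (−0.22 to 1.03), on arrays with medians of 1220, 694 and 328. With the array median in the model these values were 0.06 and −0.03. In that model the median of the 10 genes was −0.02 for B3 (array medians 1150 and 1197), −0.18 for D11 and −0.05 for H9, and PGK1 in D11 was the only one to pass. The hexose phosphate genes were held to narrower limits: in D11, PGI1 differed by −0.08 (−0.38 to 0.21), PFK1 by −0.02 (−0.24 to 0.21) and PFK2 by −0.11 (−0.41 to 0.20). TDH1 was lower in B3, at 5.36 and 4.93 against 5.54 and 5.74, a difference of −0.50 whose interval reached 0 (−1.26 to 0.26). In H9 all 10 differences were below 0, as were those of 59.6% of all genes, and they ran from −0.35 for GPM1 to −0.01 for TDH1. H9 replicate 3 was the dimmest of its group (median 810 against 1904 and 2279) and had the highest level of 8 of the 10 genes, such as 8.13 for FBA1 against 7.06 and 6.75. Under quantile normalization 5 of the 10 were above 0 in H9.

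Plasmids were also compared within each lineage. None of the 10 genes passed in B3, D11 or H9, where 0.93%, 2.79% and 8.53% of all genes passed. With no adjustment, 3 genes had a p under 0.05 in B3, 1 did in D11 and 0 in H9, against 5.95%, 18% and 25.9% of all genes. The hexose phosphate genes gave the values nearest to those of the ancestor: with the tRNA in B3, PGI1 differed by −0.35 (SE 0.14), PFK2 by −0.32 (SE 0.15) and PFK1 by −0.26 (SE 0.11), each without overlap between the arrays, against 23.1% of all genes lower in this way. Over the 10 genes the median was −0.08 for B3, −0.08 for D11 and −0.04 for H9, against −0.52 for the ancestor. Leaving out arrays 1 at a time moved it between −0.21 and 0.15 for D11 and between −0.12 and 0.25 for H9, highest without empty-vector replicate 3 in both. With the array median in the model, where none passed, it was −0.08 for B3, 0.01 for D11 and −0.12 for H9. After quantile normalization 8 of the 10 genes were above 0 in D11 and 9 of the 10 were below 0 in H9. PGK1, which fell by 0.77 in the ancestor, differed by −0.05, −0.03 and −0.13 in B3, D11 and H9.

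The difference between these responses was tested as an interaction. It was above 0 for all 10 genes in each lineage. Over all genes it was above 0 in 53.8% for B3, 54.6% for D11 and 61.2% for H9. Because the 3 tests share the 5 ancestor arrays they are not separate evidence. For PGK1 the response in D11 exceeded that in the ancestor by 0.74 (SE 0.19, limma adjusted p = 0.0218), the only call among the 10, where 13.3% of all genes passed and 7.22% were higher. In B3 the PGK1 value was 0.72 (SE 0.20, limma adjusted p = 0.120) and in H9 0.64 (SE 0.19, adjusted p = 0.186), where 0.355% and 0.524% of all genes passed. The value for D11 was 0.65 without D11 empty-vector replicate 3 (adjusted p = 0.0288). Without either ancestor empty-vector array the adjusted p was 0.0795 and 0.0851, and without ancestor tRNA replicate 3, D11 tRNA replicate 1 or D11 tRNA replicate 3 it lay between 0.0526 and 0.0596. With the array median in the model 4 genes passed in D11: GPM1 (0.44), TPI1 (0.46), TDH1 (0.70) and PGK1 (0.73).

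ENO1 had the largest differences of the 10 and the least certain ones. In D11 with the empty vector it read 5.84, 6.0 and 2.75, against 6.02 and 5.90 in the ancestor, which gave a log2 difference of −1.09 (SE 0.62, limma adjusted p = 0.194) and, against D11 with the tRNA, 1.26 (SE 0.56, adjusted p = 0.252). Both values rested on replicate 3, where the 2 spots of the ENO1 probe read 24134 and 202, a 120-fold gap on 1 array. Neither spot was marked as an outlier by the scanner software. The PGK1 spots on that array read 50196 and 12174, 4.12-fold apart, and on D11 with the tRNA, replicate 2, the ENO1 and PGK1 spots were 2.32-fold and 2.34-fold apart. In the other 216 of 220 pairs of spots of the 10 genes the gap was at most 1.85-fold. Without replicate 3 the difference of ENO1 in D11 was −0.04, and with disagreeing probes left out it was −0.02.

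**Figure D4:**
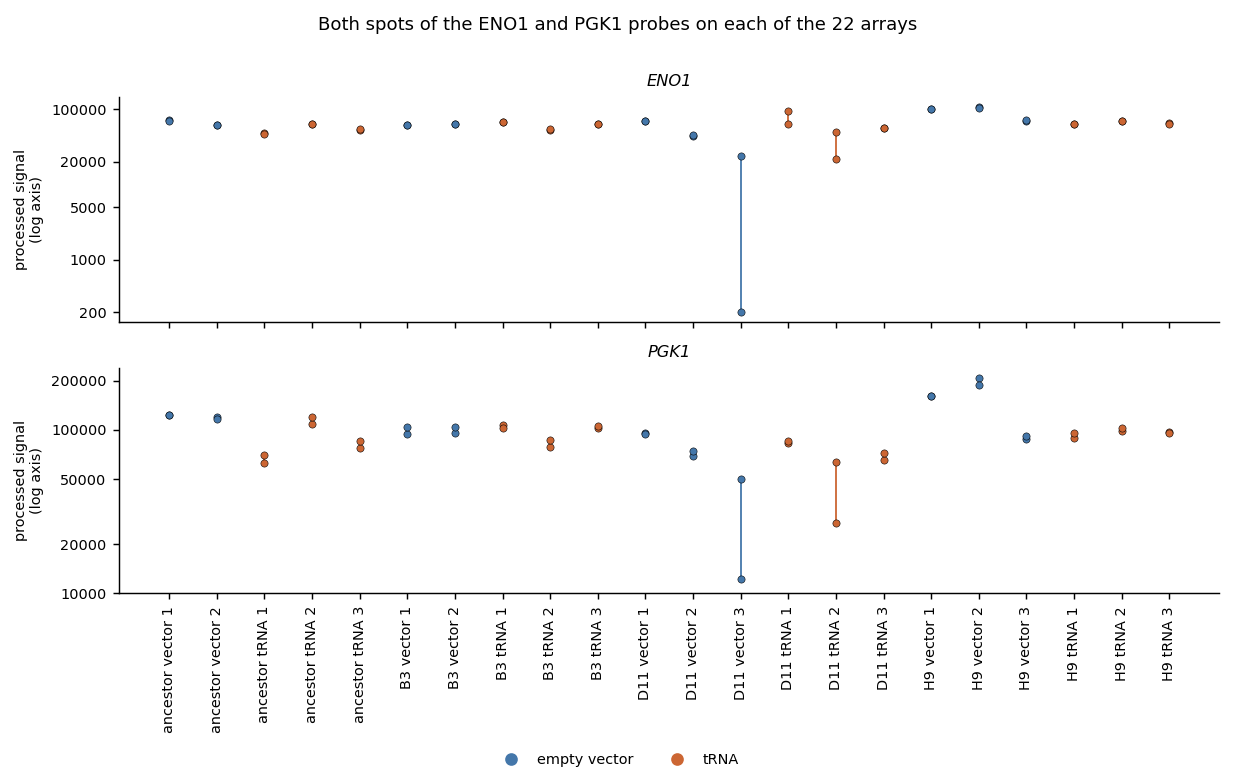
Processed signal (log axis) of both spots of the ENO1 probe and of the PGK1 probe on each of the 22 arrays, joined by a line. On nearly all arrays the spots coincide. On D11 with the empty vector, replicate 3, they lie 120-fold apart for ENO1 and 4.12-fold for PGK1.

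Among themselves the genes fell into those that moved together and those that did not. Over the 22 arrays, as a description, Pearson's r between the levels of GPM1 and CDC19 was 0.98, of TPI1 and GPM1 0.98, of TPI1 and CDC19 0.97 and of FBA1 and CDC19 0.97. These are the 4 genes with the lowest slopes on array brightness, so the shared array medians enter each of these values. PGI1 and PFK1 gave 0.78, and PFK1 and PFK2, whose products form 1 enzyme, 0.61. After group means were removed PFK1 and PFK2 gave 0.11 and PFK2 and FBA1 −0.58. The 5 genes outside the 10 whose levels were most like the mean of the 10 were CPR1, a cyclophilin (r = 0.94), HYP2, translation factor eIF5A (0.93), SOD1, superoxide dismutase (0.90), RPS25A, a ribosomal protein (0.89), and TDH2, another glyceraldehyde-3-phosphate dehydrogenase (0.88). All 5 are bright probes, with slopes on the array median between 0.42 and 0.73.

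The genes lie on chromosomes I, II, III, IV, VII, X, XI and XIII. With the empty vector, the median difference of the 10 tested genes on each side of a member was between −0.29 and −0.03 in B3, between −0.27 and 0.00 in D11, and between −0.15 and 0.01 in H9. Around PGK1, on chromosome III, they were −0.11 in B3, −0.03 in D11 and −0.12 in H9, against −0.42, −0.42 and −0.28 for PGK1 itself.

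Further genes of the pathway were counted in the same tests. Of 9 further glycolytic genes (the hexose kinases HXK1, HXK2 and GLK1, and the isozyme genes TDH2, TDH3, GPM2, GPM3, ENO2 and PYK2), 3 passed as lower with the tRNA in the ancestor, where 11.1% of all genes did. With the empty vector 2 passed as lower in B3, 5 in D11 and none in H9, against 5.94%, 11.7% and 1.52% of all genes. None passed as higher in these 4 comparisons. HXK1, a hexokinase that is repressed by glucose, read 3.93 and 3.98 in the ancestor with the empty vector and 1.58, 2.83 and 1.56 with the tRNA (−1.96, SE 0.63, limma adjusted p = 0.0403). It read 0.81 and 0.82 in B3 with the empty vector (−3.14, SE 0.69, adjusted p = 0.00902) and 1.01, 0.41 and 0.27 in D11 (−3.39, SE 0.63, adjusted p = 0.00109). In H9 it read 2.56, 2.36 and 5.01, so that replicate 3 stood above the ancestor and the others below. Leaving out arrays 1 at a time kept the HXK1 call in 5 of 5 cases for D11, in 1 of 5 for the ancestor with the tRNA and in 0 of 4 for B3, where the difference stayed between −3.16 and −3.11.

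HXK2, the hexokinase used on glucose, fell by much less, with limma adjusted p of 0.000902 in the ancestor with the tRNA (−0.61, SE 0.10) and 0.00421 in D11 with the empty vector (−0.46, SE 0.10). Glucokinase, GLK1, fell in D11 with the empty vector, from 3.20 and 3.32 in the ancestor to 0.98, 0.88 and −2.01 (−3.31, SE 0.80, adjusted p = 0.00649), and by 2.33 without replicate 3 (adjusted p = 0.0178). That call was lost without ancestor replicate 2 (adjusted p = 0.0546). GPM2, a homologue of phosphoglycerate mutase, fell in D11 with the empty vector (−2.26, adjusted p = 0.00144) and in B3 (−1.54, adjusted p = 0.0468), where no leave-out of 1 array kept the call. PYK2, the minor pyruvate kinase, fell in the ancestor with the tRNA (−1.14, adjusted p = 0.00580) and in D11 with the empty vector (−1.47, adjusted p = 0.000612). The abundant isozyme genes TDH2, TDH3 and ENO2 differed by −0.27 to −0.50 with the tRNA in the ancestor and passed in none of the 13 tests.

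**Figure D5:**
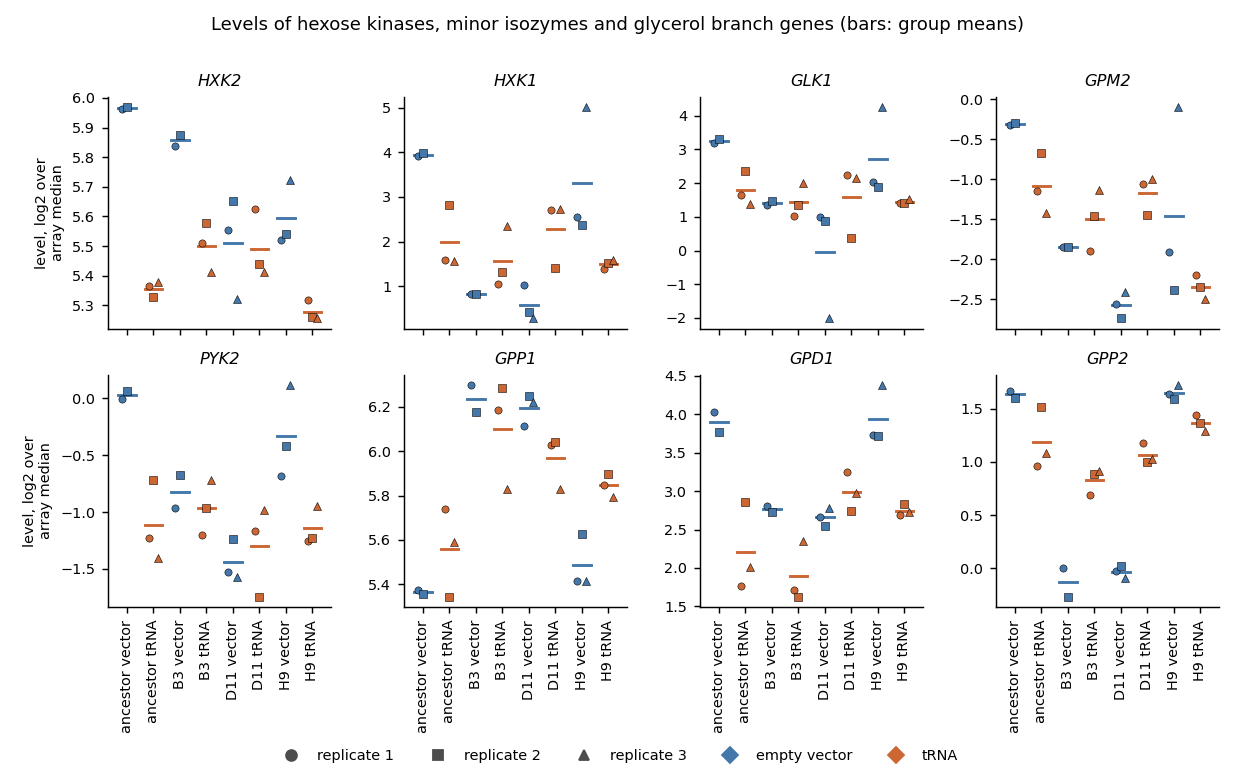
Level (log2 of the processed signal over the median of the array) of hexose kinase genes HXK2, HXK1 and GLK1, minor isozyme genes GPM2 and PYK2, and glycerol branch genes GPP1, GPD1 and GPP2 on the 22 arrays. Points are arrays, bars are group means, and each panel has its own scale. With the empty vector HXK1, GPD1 and GPP2 are lower in B3 and D11 than in the ancestor, and GPP1 is higher.

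Glycerol formation draws dihydroxyacetone phosphate from the middle of glycolysis. Of the 4 genes of this branch, all passed in D11 and 3 in B3 with the empty vector, where 28.2% and 11.9% of all genes passed, and they did not move one way. GPD1, the glycerol-3-phosphate dehydrogenase induced by osmotic stress, fell in B3 (−1.13, SE 0.31, limma adjusted p = 0.0254), in D11 (−1.24, SE 0.28, adjusted p = 0.00428) and in the ancestor with the tRNA (−1.69, SE 0.28, adjusted p = 0.000788), and the B3 call was lost when any of the 4 arrays compared was left out. GPP2, the stress-induced glycerol phosphatase, read 1.67 and 1.6 in the ancestor, 0.00 and −0.27 in B3 and −0.03, 0.02 and −0.09 in D11, a fall of 1.77 and 1.67 with adjusted p of 3.74e-06 and 8.29e-07. The other phosphatase gene, GPP1, rose in B3 (0.87, SE 0.15, adjusted p = 0.00194) and D11 (0.83, SE 0.14, adjusted p = 0.000428), and GPD2, the isozyme used when oxygen is short, rose in D11 (1.14, SE 0.28, adjusted p = 0.00720). In H9 with the empty vector none of the 4 passed. Whether the copy number of these 4 genes differed between the strains was not tested. Relative to the empty vector of the same strain, GPP2 rose with the tRNA in B3 (0.96, adjusted p = 0.00154) and D11 (1.10, adjusted p = 7.98e-05) where it fell in the ancestor (−0.45, adjusted p = 0.0312, kept in 1 of 5 leave-outs), and the difference in response from the ancestor passed both for B3 (1.41, adjusted p = 0.00294) and for D11 (1.55, adjusted p = 0.000156).

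Downstream of pyruvate, of 8 genes of ethanol fermentation (PDC1, PDC5, PDC6 and ADH1 to ADH5), 1 passed as higher in each of the lineages with the empty vector, where 5.99% of all genes did for B3, 16.5% for D11 and 1.71% for H9, and 1 in the ancestor with the tRNA, where 7.98% did. ADH5, an alcohol dehydrogenase, rose in D11 with the empty vector (0.77, SE 0.16, limma adjusted p = 0.00278) and in the ancestor with the tRNA (0.70, SE 0.16, adjusted p = 0.00818). It fell in H9 with the tRNA relative to the ancestor (−0.62, adjusted p = 0.00933), and its response to the tRNA in D11 lay below that in the ancestor (−1.08, adjusted p = 0.00669). ADH4, another alcohol dehydrogenase gene, rose in H9 with the empty vector (0.88, limma adjusted p = 0.0455, kept in 1 of 5 leave-outs) and fell in H9 with the tRNA relative to the empty vector (−1.15, adjusted p = 0.00555). PDC6, a minor pyruvate decarboxylase, rose in B3 with the empty vector (0.98, adjusted p = 0.0434, kept in 0 of 4 leave-outs) and fell in H9 with the tRNA relative to the ancestor (−1.08, adjusted p = 0.00717). The PDC6 probe is dim, with a mean log2 signal of 6.19. PDC1 and ADH1, the main genes of the 2 steps, passed in no comparison, and their slopes on the array median were 0.10 and 0.21.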

How the data were processed

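Total RNA of 22 cultures had been hybridised to single-colour Agilent arrays with 2 spots for each probe. The deposited scanner values are intensities made with Agilent Feature Extraction 10.7.3.1, per the file headers, and the processed signal is already background-subtracted by that software. The series values deposited by the authors are on a log2 scale and equalled log2 of the background-subtracted signal plus a constant for each array. They were used only as an alternative. The study's methods name median centring and a t-test with p under 0.01 as threshold.

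Here log2 of the processed signal was taken, spots marked as outliers were dropped, spots were averaged for each probe, and the median over all probes that are not controls was subtracted from each array. Probes of a gene were averaged. A gene was tested if some group had, on all of its arrays, 1 or both spots well above background, and 5912 of 6225 genes met this. Genes were named from the RefSeq R64 gene table, in which 5720 matched, and no coordinates were taken from it, since the array design used another build. A single model, with 8 group coefficients, was fitted to all genes (limma 3.58.1, R 4.3.3, 14 residual degrees of freedom), with 10 comparisons of groups and 3 differences of responses. P-values were adjusted by Benjamini-Hochberg over all genes tested, with a threshold of 0.05, and the fit was tested on simulated data.

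The 10 genes are named by their pathway role. Of the other lists, the text names genes that passed or that had the largest difference, and the 5 genes most like the mean of the 10. The members and lists were chosen with earlier results of these data known. Nothing in the labels ties arrays to RNA extractions, so p-values measure the spread between these arrays. The number of arrays limits the precision. Alternatives were 75th percentile scaling, the median over unchanged chromosomes, quantile normalization, normexp background correction with an offset of 50, the deposited series values, no filter on dim probes, a replicate block, only the groups compared, the methods' t-test and leaving out each array. Normexp was run on the median signal because the scanner values used here hold no mean signal. Probes with spots over 2-fold apart left out, and the array median as a covariate, were added after seeing the data.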

Additional observations from a re-analysis of the deposited data

Results flagged for a closer look

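The response to the tRNA differed between D11 and the ancestor in 5 of the 19 glycolytic genes tested, by the limma interaction with Benjamini-Hochberg adjustment. The response in D11 exceeded that in the ancestor by 0.74 on the log2 scale for PGK1 (adjusted p = 0.0218), 3.68 for HXK1 (adjusted p = 0.0125), 0.59 for HXK2 (adjusted p = 0.0136), 2.17 for GPM2 (adjusted p = 0.0251) and 1.29 for PYK2 (adjusted p = 0.0228). Leaving out 1 array at a time kept the call in 6 of 11 cases for PGK1, 9 of 11 for HXK1, 9 of 11 for HXK2, 5 of 11 for GPM2 and 5 of 11 for PYK2. Over all genes 13.3% passed this test for D11, and 7.22% were higher. None of the 19 passed this test in B3 or H9. For PFK2, with the empty vector, both B3 arrays were above the ancestor (0.089) and all 3 D11 arrays below it (−0.106), where 38.7% of all genes lay higher without overlap in B3 and 23.7% lower in D11, and the difference between these lineages was not tested.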

How the results depend on the processing

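The number of the 10 genes passing the test, and their median difference, were counted as the same as reported in 338 of 393 alternatives. For a median this allowed small shifts, and counts of 0 that stayed 0 are included. Apart from the methods' t-test, the counts below have no share over all genes beside them. With the empty vector, the count in B3 went from 0 to 1 with agreeing spots and the array median as covariate, to 2 with only the groups compared and to 1 with the methods' t-test (after Benjamini-Hochberg at 0.05, as in the counts that follow). In D11 it went from 1 to 4 under quantile normalization and to 0 with the median over unchanged chromosomes, the deposited series values, the replicate block, agreeing spots, only the groups compared and the methods' t-test. In the ancestor with the tRNA the count of 3 became 0 with the deposited series values, 7 with the covariate, 8 with agreeing spots and covariate, 5 with only the groups compared and 1 with the methods' t-test. At an unadjusted p under 0.01 the methods' t-test gave 3 genes there, 1 in B3 with the empty vector, 1 for the tRNA in B3 and 0 in the other comparisons. Over the whole array it gave 788, 1341 and 267 genes, and between 155 and 870 in the others. After adjustment it gave 321 over the whole array in the ancestor with the tRNA and 1630 in B3 with the empty vector. With the tRNA on both sides the limma count rose from 0 to 1 in B3 (agreeing spots and covariate). It rose to 2 (agreeing spots) or 1 (covariate, alone or with agreeing spots) in D11, and to 4 in H9 (covariate, alone or with agreeing spots). With the tRNA against the empty vector in H9 it was 1 with agreeing spots and covariate.

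For the difference in response the count in B3 was 1 with agreeing spots and covariate and with only the groups compared. In D11 it was 0 with normexp, the deposited series values and only the groups compared, 2 with agreeing spots, 4 with the covariate and 6 with both. Leaving out each array gave counts of 1 to 3 for the ancestral tRNA comparison, 0 to 1 in D11 with the empty vector, 0 to 1 for the response in D11 and 0 to 1 for that in H9.

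The median difference became −0.26 (quantile normalization), −0.18 (covariate) and −0.16 (covariate with agreeing spots) in D11 with the empty vector, and 0.0098, −0.045 and −0.056 in H9. It became −0.23 in the ancestor with the tRNA under quantile normalization. With the tRNA on both sides it became 0.012 (quantile), 0.25 (covariate) and 0.27 (both) in D11 and 0.097 (quantile) in H9. Leaving out each array, it ranged from −0.21 to 0.15 for the tRNA in D11, highest without empty-vector replicate 3, and from −0.12 to 0.25 for the tRNA in H9, likewise highest without empty-vector replicate 3.

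Quantile normalization kept the sign of 10 of the 10 genes in the ancestor with the tRNA, of 8, 6 and 5 in B3, D11 and H9 with the empty vector, of 7, 6 and 8 with the tRNA on both sides, and of 7, 4 and 7 for the tRNA within each lineage. Among those it turned were TPI1 (−0.28) and GPM1 (−0.31) in D11 with the empty vector. It also turned GPP1 (−0.0062), a glycerol branch gene, in D11 with the tRNA. Of 54 calls in the other lists, 757 of 968 alternatives kept the call, 210 lost it and 1 turned it. The cause of these changes was not tested. Arrays of the same replicate number deviated together with a median r of 0.02 (71 pairs), against −0.01 for different numbers (140 pairs). An r over 0.1 was seen in 23 of the 71 pairs and in 30 of the 140. With so few arrays in a group, these values cannot tell whether the numbers pair the cultures. With the replicate block, 3 genes passed in the ancestor with the tRNA.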

Other observations

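Of 6 regulators (GCR1, GCR2, RAP1, TYE7, PFK26 and PFK27), only GCR1, an activator of glycolytic genes, passed. It was lower in the ancestor with the tRNA (−0.52, limma adjusted p = 0.0450, kept in 1 of 5 leave-outs), where 11.1% of all genes passed as lower. Of 10 genes repressed by glucose, the high-affinity hexose transporter genes HXT6 (−2.19) and HXT7 (−2.15) fell in B3 with the empty vector, with limma adjusted p of 0.0184 and 0.0173, and both calls were lost when any of the 4 arrays was left out. SUC2, the invertase gene, rose in B3 with the empty vector (0.83, adjusted p = 0.000727) and with the tRNA (0.59, adjusted p = 0.00190), and fell in H9 with the tRNA relative to the ancestor (−0.77, adjusted p = 6.56e-05). FBP1, the gluconeogenic fructose bisphosphatase, rose in the ancestor with the tRNA (1.44, adjusted p = 0.0222, kept in 1 of 5 leave-outs) and in D11 with the empty vector (1.12, adjusted p = 0.0497, kept in 1 of 5 leave-outs). The FBP1 probe is dim, with a mean log2 signal of 6.23. With the tRNA, ACS1, an acetyl-CoA synthetase gene, rose in D11 relative to the ancestor (0.39, limma adjusted p = 0.0190). Within H9, ACS1 (−0.44, limma adjusted p = 0.0174) and SUC2 (−0.48, adjusted p = 0.0118) were lower with the tRNA than with the empty vector.

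Levels of these 10 glucose-repressed genes were also summed before taking log2, so the brightest, HXT7 and HXT6 (mean log2 signal 12.9 and 12.1), weigh most. The log2 sum lay between 4.37 and 4.50 for the empty vector in the ancestor and between 3.52 and 4.30 for its tRNA cultures. For the empty vector it was 3.11 to 3.13 in B3 and 3.48 to 4.05 in D11. Single genes did not all follow the sum. Relative to the ancestor with the empty vector, 5 of the 10 were above 0 in its tRNA cultures (median 0.05). With the empty vector, 4 were above 0 in B3 (median −0.17) and 7 in D11 (median 0.07). For the empty vector in H9 the log2 sum was 4.16 to 6.08, highest on replicate 3, which was also the array with the highest HXK1 level. Without that array, 7 of the 10 glycolytic genes were above 0 for the tRNA against the empty vector in H9, against 4 with all arrays. What the glucose-repressed genes have to do with the H9 results was not tested.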
